A study of Homo sapiens with 8 samples.

Results

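The A-485 main effect is the difference in RNA level between the 4 libraries of the series that had received A-485 and the 4 that had not, averaged over the presence and absence of I-CBP112. A-485 inhibits the catalytic acetyltransferase site of p300 and CBP, and I-CBP112 inhibits their bromodomain. The cells were LNCaP-FGC, an established androgen-dependent prostate cancer line, treated for 24 h. The libraries with A-485 were 2 of A-485 alone and 2 of A-485 and I-CBP112, and the libraries without it were 2 of DMSO, the solvent control, and 2 of I-CBP112 alone. The libraries carry the prefix 12-17 (replicate 1) or 2-22 (replicate 2), which the labels do not explain. Neither label nor protocol states the doses. All 8 libraries of the series entered the comparison, and it covered 11874 of the 19431 genes in the table, those with a scaled value of at least 1 in at least 2 libraries. Whether each library had its own culture is not in the labels, so the p-values rest on the spread among these libraries alone, and that spread may be technical.

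p300 (EP300) and CBP (CREBBP) are paralogous coactivators. They acetylate histones, above all at enhancers and promoters, and many other proteins, and they bind acetylated lysines through their bromodomain. In prostate cancer cells they serve as coactivators of androgen-driven transcription, and the amino acid stress factor ATF4, CREB and the interferon factors are among their other partners.

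The deposited values were FPKM (fragments per kilobase of transcript per 1000000 normalizing fragments, as estimated per transcript), summed here per gene and scaled between libraries. In the 12-17 libraries the FPKM totals were 696917 and 766588 with A-485 and 808443 and 728120 without it. In the 2-22 libraries they were 269868 and 408673 with A-485 and 187776 and 181486 without it. The estimated number of fragments on the transcripts of the table in units of 1000000 was 15.87 to 28.23 in the 12-17 libraries and 4.44 to 13.44 in the 2-22 libraries. Within the 12-17 libraries it was 28.23 and 16.98 with A-485 and 20.77 and 15.87 without it. Within the 2-22 libraries it was 5.31 and 13.44 with A-485 and 4.7 and 4.44 without it. The estimated normalizing fragments overlapped between the prefixes, at 17.09 to 31.12 (12-17) and 15.71 to 27.2 (2-22). The part of these differences in the results was not tested. Between 11141 and 11403 genes reached a scaled FPKM of 1 per library. The luminal markers KRT8, KRT18, EPCAM and HOXB13 were above 50 scaled FPKM in every library. Not all luminal markers were abundant, since KRT19 stayed at or under 10.09 and ACPP at or under 20.62. TP63 (basal cells), DES and CDH5 (muscle and endothelium), INSM1 and FOXA2 (neuroendocrine cells) and PTPRC (blood cells) were listed at 0 in all 8. Other such markers were detected. KRT5 (basal cells) reached 14.06 scaled FPKM, DLL3 (neuroendocrine cells) 16.09 and ACTA2 (muscle) 22.4, each in a library without A-485. ITGA6 and VIM were also highest in a library without it. ENO2 (neuroendocrine cells) reached 74.11, COL1A1 (stroma) 11.74 and ITGB4 (basal cells) 3.847, each in a library with A-485. DST, VWF, SYP and CD68 were also highest in a library with it. On the first principal component, which held 36.8% of the variance, the libraries with A-485 lay between -29.7 and -16.9 and those without it between 8.3 and 39.3. In bulk RNA, fewer cells of a kind and less RNA per cell cannot be told apart.

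More genes were lower than higher with A-485. Of the 11874 genes tested, 1112 (9.36%) were lower and 541 (4.56%) were higher, 1653 (13.9%) in all (limma with I-CBP112 and the prefix as covariates, Benjamini-Hochberg adjusted p under 0.05). Falls also reached further. Among the called genes, 256 (2.16% of those tested) were at least 2-fold lower on that scale and 55 (0.463%) at least 2-fold higher. An unadjusted p under 0.05 was found for 3809 genes.

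Falls were more frequent among abundant transcripts. Of the 1295 genes averaging at least 100 scaled FPKM, 16.2% were lower and 1.39% higher, with a median log2 difference of -0.18. Of the 2996 genes averaging under 5, 5.27% were lower and 4.37% higher, with a median of 0.14. Genes averaging 20 to 100 gave 12.4% lower and 4.19% higher, and those averaging 5 to 20 gave 7.55% and 6.03%. This split depends on the scaling. The median gene differed by 0.03 (log2) under the trimmed-mean scaling, by 0.22 after scaling to equal totals and by 0.45 in the FPKM as deposited. The calls were then 1572 higher and 665 lower at equal totals and 3784 higher and 224 lower as deposited, while quantile normalization gave 813 higher and 1106 lower. All changes below are relative to the trimmed-mean scaling.

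The count of calls was also sensitive to single libraries. It was 532 without A-485 and I-CBP112 replicate 1, 589 with A-485 replicate 1 left out, 696 without A-485 replicate 2, 702 without I-CBP112 replicate 2 and 819 without DMSO replicate 2. It lay between 1150 and 1829 when any 1 of the other 3 libraries was left out. Without the prefix as a block, 1081 genes were called (324 higher, 757 lower). Within the 4 libraries of the 12-17 prefix 466 genes were called (108 higher, 358 lower), and within those of the 2-22 prefix 50 (5 higher, 45 lower). Across all genes tested, the differences in the 12-17 and the 2-22 libraries had a Pearson correlation of 0.695, given as a description since genes are not independent replicates.

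**Figure D1:**
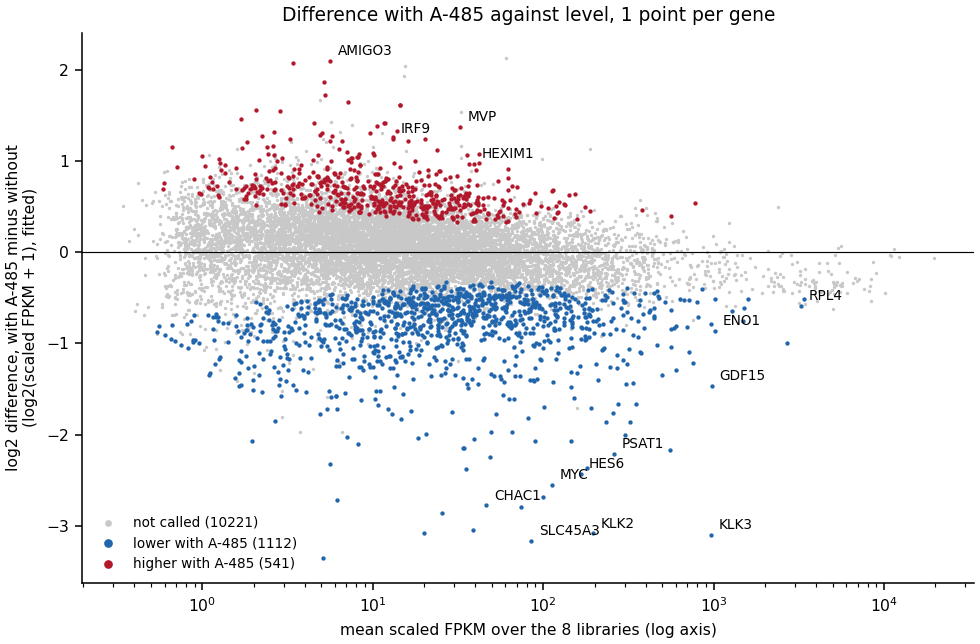
Log2 difference with A-485 minus without (y axis, fitted on log2(scaled FPKM + 1)) against the mean scaled FPKM of the 8 libraries (x axis, log scale), 1 point per gene tested. Blue points are the 1112 genes called lower and red points the 541 called higher; SLC45A3 (-3.16), KLK3 (-3.10) and KLK2 (-3.08) are among the deepest falls, and AMIGO3 (2.10) is the largest called rise.

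Genes of the differentiated luminal prostate cell were among the largest falls. SLC45A3, which encodes the prostate antigen prostein, had 18.9 and 14.3 scaled FPKM with A-485 alone and 16.4 and 14.9 with A-485 and I-CBP112, against 181 and 127 with DMSO and 171 and 134 with I-CBP112. All 4 libraries with A-485 lay far below all 4 without it, and the 2 states of I-CBP112 were alike. Its log2 difference was -3.16 ± 0.10 (SE; limma, adjusted p = 1.6e-05). KLK3, which encodes the prostate-specific antigen, had 572 and 628 scaled FPKM with A-485 alone and 51.6 and 50.6 with A-485 and I-CBP112, against 2244 and 1995 with DMSO and 1103 and 1070 with I-CBP112. No library with A-485 reached the level of one without it, and the libraries with both compounds were the lowest. Its mean was 326 ± 318 with A-485 and 1603 ± 605 without it (SD, n = 4 each), a log2 difference of -3.10 ± 0.47 (limma, adjusted p = 0.0065).

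The related protease gene KLK2 differed by -3.08 ± 0.41, and C1orf116, an androgen-regulated gene, by -3.05 ± 0.22. CHRNA2, a nicotinic receptor subunit, differed by -2.72 ± 0.20 (limma, adjusted p from 0.00051 to 0.0044 for these 3). Of 37 androgen-induced genes tested, 27 were lower and 0 higher (73%, against 9.36% of all genes), with a median log2 difference of -0.90. That count was 15 to 28 with any 1 library left out. It moved by over 1.5 times without A-485 replicate 1 or A-485 and I-CBP112 replicate 1. It was 19 at equal totals. These lists were put together with earlier results of these data known, so their counts are descriptions.

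Among transcription factors of the luminal lineage, 8 of 16 tested were lower (50%, against 9.36% of all genes) and 0 higher. The list median was -0.57 (0.00 in the FPKM as deposited). FOXA1 (-0.10 ± 0.14) and HOXB13 (-0.03 ± 0.12) were not called (limma, adjusted p = 0.64 and 0.89). GATA2 (-0.41 ± 0.14), GRHL2 (-0.26 ± 0.10) and ELF3 (0.20 ± 0.14) were not called either. SPDEF, an ETS factor of secretory epithelia, differed by -1.39 ± 0.09, XBP1, a factor of secretory and stress responses, by -1.31 ± 0.13, and KLF5 by -1.27 ± 0.16 from a low level (0.644 scaled FPKM with A-485 and 3.04 without it). Of 9 genes known to be repressed by androgen, 3 were lower (33.3%, against 9.36% of all genes) and 0 higher, with a median of -0.57. That median was -0.19 without A-485 and I-CBP112 replicate 1, -0.16 without I-CBP112 replicate 1 and -0.82 to -0.42 when any 1 of the other 6 libraries was left out. The median was -0.18 in the FPKM as deposited, and by the state of I-CBP112 it was -1.12 with I-CBP112 present and 0.43 without it, a difference not tested. The 3 were DDC (aromatic L-amino acid decarboxylase, -2.79 ± 0.40), TRIB1 (a pseudokinase, -0.85 ± 0.13) and PRKD1 (a protein kinase, -0.79 ± 0.09).

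Other genes among the 14 largest falls were ADAMTS1 (a secreted metalloprotease, -3.07 ± 0.21), RLN1 (relaxin 1, -2.86 ± 0.21), HES6 (a basic helix-loop-helix factor, -2.43 ± 0.10) and MCCC2 (a mitochondrial enzyme of leucine breakdown, -2.37 ± 0.34). HES6 had 64.3 and 42.7 scaled FPKM with A-485 alone and 57.7 and 41.4 with A-485 and I-CBP112, against 339 and 219 with DMSO and 326 and 244 with I-CBP112, so that within each prefix the levels with and without I-CBP112 were close. TRIM49D1 had the lowest value of all, -3.35 ± 0.14, with 0 to 0.152 scaled FPKM with A-485 and 8.201 to 11.1 without it. It belongs to a multigene family with nearly identical copies, between which the authors' quantification could split reads, so this value is uncertain.

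**Figure D2:**
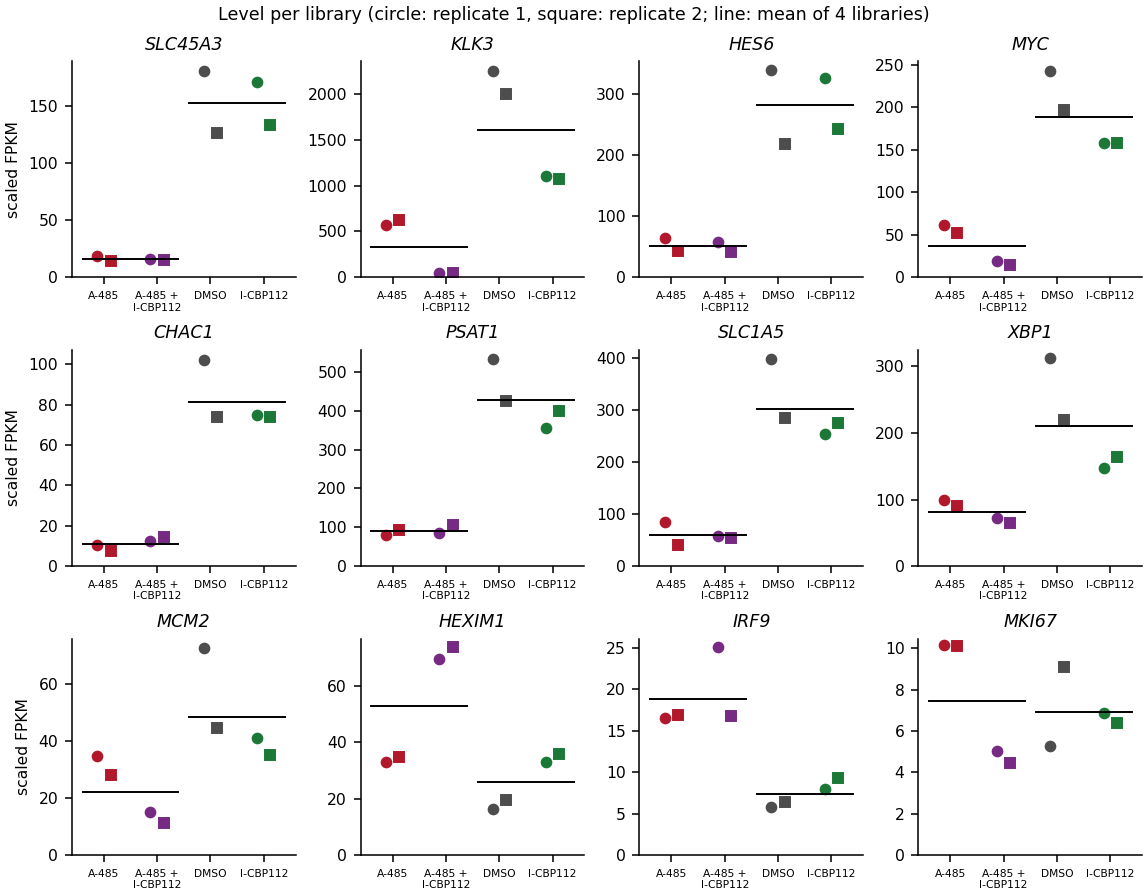
Scaled FPKM (y axis, linear, from 0) of 12 genes in each library, with the libraries with A-485 on the left and those without it on the right; circles are replicate 1 (12-17), squares replicate 2 (2-22), and lines are means of 4 libraries. For SLC45A3, HES6, CHAC1 and PSAT1 the A-485 libraries lie close to those with both compounds, KLK3 and MYC are lowest with both compounds, HEXIM1 and IRF9 are higher with A-485, and MKI67 overlaps between the sets.

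Genes that ATF4 induces when amino acids are short or cells are stressed were lower almost throughout. Of 34 tested, 30 were lower, 0 were higher, and all 34 had a negative difference (88.2% lower, against 9.36% of all genes, with a median of -1.34). The count was 24 to 30 with any 1 library left out and 26 at equal totals, and the median in the FPKM as deposited was -0.74. CHAC1, an enzyme that degrades glutathione, had 10.5 and 7.36 scaled FPKM with A-485 alone and 12.4 and 14.7 with A-485 and I-CBP112, against 102 and 74.1 with DMSO and 74.9 and 73.7 with I-CBP112. There was no overlap between the sets, and the log2 difference was -2.78 ± 0.20 (limma, adjusted p = 0.00051). SLC1A5, the glutamine carrier, differed by -2.36 ± 0.19, PSAT1, an enzyme of serine synthesis, by -2.21 ± 0.15, and TRIB3, a pseudokinase induced by ATF4, by -2.06 ± 0.19 (limma, adjusted p from 0.00051 to 0.0012).

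ATF4 itself, shown here although it is no member of that list and was chosen after its values were seen, had 310 and 394 scaled FPKM with A-485 alone and 298 and 387 with A-485 and I-CBP112. Its levels were 1067 and 867 with DMSO and 681 and 800 with I-CBP112. Both sets of 4 libraries were separate, and the log2 difference was -1.29 ± 0.15 (limma, adjusted p = 0.0028, 0.00161 to 0.0206 with any 1 library left out). The cytosolic aminoacyl-tRNA synthetases charge tRNAs with amino acids, and ATF4 induces several of them. They were lower in 13 of 20 cases (65%, against 9.36% of all genes) and higher in 0, with a median of -0.81. The largest differences were -1.59 ± 0.12 for GARS (glycine), -1.40 ± 0.14 for YARS (tyrosine), -1.23 ± 0.19 for MARS (methionine) and -1.13 ± 0.15 for AARS (alanine). Exons of MARS overlap those of DDIT3, an ATF4 target, on the opposite strand, and exons of YARS overlap S100PBP in the same way, and the counting is not stated to use strand.

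Sequence before the transcription start was available for many of these genes in RefSeq (GRCh38.p14), as windows of 300 bases, 250 before the start and 50 from it on. ATF4 binds, as a dimer with C/EBP proteins, a composite element with the letters TGATGNAA on either strand. These letters were in 1003 of all 27305 windows (3.67%), in 6 of 28 windows of ATF4 targets (21.4%), in 6 of 16 of the synthetases (37.5%), in 0 of 24 of androgen-induced genes and in 0 of 33 of nucleolar genes. The ATF4 list was made of genes known to be induced by ATF4, so its share may follow from that choice. Of the synthetases with a match, MARS, AARS, CARS and IARS were called lower, and TARS and NARS were not called. The 2 ATF4 targets with the largest falls among the 6 with a match are CHAC1 and ASNS (asparagine synthetase, -1.86 ± 0.21; limma, adjusted p = 0.0028). The 250 bases before their starts are shown because they hold the element in the gene list with the largest share of lower calls, in capitals: TTGCATCA for CHAC1, which is the element read on the other strand, first base 209 before the start, and TGATGAAA for ASNS, first base 68 before it.
CHAC1, chr15:40953221-40953470, + strand: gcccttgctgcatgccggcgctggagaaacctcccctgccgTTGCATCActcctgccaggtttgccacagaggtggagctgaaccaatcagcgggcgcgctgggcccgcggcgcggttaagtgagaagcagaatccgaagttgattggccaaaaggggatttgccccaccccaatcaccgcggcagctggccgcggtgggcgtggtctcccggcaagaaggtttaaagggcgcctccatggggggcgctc
ASNS, chr7:97872409-97872658, - strand: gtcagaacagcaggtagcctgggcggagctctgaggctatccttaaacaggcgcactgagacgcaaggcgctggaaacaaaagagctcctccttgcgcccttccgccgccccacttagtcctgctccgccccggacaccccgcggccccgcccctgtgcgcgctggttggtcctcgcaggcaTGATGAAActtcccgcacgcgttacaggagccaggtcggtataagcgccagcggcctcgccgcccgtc
ASNS had 111.9 and 120 scaled FPKM with A-485 alone and 136 and 188 with A-485 and I-CBP112, against 667 and 473 with DMSO and 410 and 475 with I-CBP112. A match of letters is a description and no shown binding site.

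Genes of protein folding in the endoplasmic reticulum and of the unfolded protein response were lower in 11 of 28 cases (39.3%, against 9.36% of all genes). In 1 case the gene was higher (3.57%, against 4.56%), and the median of -0.37 was 0.17 in the FPKM as deposited. HERPUD1, which takes part in degradation at the endoplasmic reticulum, differed by -1.32 ± 0.17, DNAJB9, a co-chaperone, by -0.94 ± 0.14, and MANF, a secreted stress protein, by -0.88 ± 0.13. Exons of DNAJB9 overlap THAP5 on the opposite strand. The exception was ERO1B, an oxidase of disulfide formation, at 0.82 ± 0.13. The count of lower genes was 6 to 13 with any 1 library left out, and it moved by over 1.5 times without A-485 replicate 1, A-485 replicate 2, A-485 and I-CBP112 replicate 1 or DMSO replicate 2.

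GDF15, a stress cytokine that ATF4 also induces, had 739 and 652 scaled FPKM with A-485 alone and 340 and 379 with A-485 and I-CBP112, against 1913 and 1653 with DMSO and 1068 and 1061 with I-CBP112. Again the sets were separate, and it differed by -1.46 ± 0.12 (limma, adjusted p = 0.0008). PMAIP1, which encodes the apoptosis inducer NOXA, differed by -1.54 ± 0.14. TP53I3, a quinone oxidoreductase and one of the 14 largest rises, had 17.3 and 23.2 scaled FPKM with A-485 alone and 11.9 and 16.1 with A-485 and I-CBP112, against 7.34 and 6.34 with DMSO and 9.64 and 1.92 with I-CBP112. Its call (1.42 ± 0.35; limma, adjusted p = 0.034) was lost without any 1 library other than I-CBP112 replicate 1, with adjusted p up to 0.109.

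MYC, the growth-promoting transcription factor, had 61.4 and 51.8 scaled FPKM with A-485 alone and 19.1 and 14.7 with A-485 and I-CBP112, against 243 and 197 with DMSO and 158 and 157 with I-CBP112. All 4 libraries with A-485 lay on one side, and it differed by -2.55 ± 0.24 (limma, adjusted p = 0.0012). The network of its partners and close targets had 3 of 14 lower (21.4%, against 9.36% of all genes), namely MYC, ODC1 and CDK4. The count was 1 to 4 with 1 library left out, and the median was -0.16, which turned to 0.05 at equal totals. The 3 moved by over 1.5 times without A-485 replicate 1, A-485 replicate 2, A-485 and I-CBP112 replicate 1, DMSO replicate 2 or I-CBP112 replicate 2. Genes of ribosome assembly in the nucleolus, many of which MYC is known to induce, all had negative differences. Of 39 tested, 19 were lower and 0 higher (48.7%, against 9.36%), with a median of -0.56 that was 0.01 in the FPKM as deposited. The count was 13 to 21 with any 1 library left out and 16 at equal totals. GNL3 (nucleostemin) differed by -1.08 ± 0.16, NOLC1 by -0.98 ± 0.09, PPAN by -0.96 ± 0.11 and DKC1 (dyskerin) by -0.94 ± 0.10. Exons of GNL3 overlap GLT8D1 on the opposite strand. Among the structural proteins of the ribosome only 2 of 42 were lower (4.76%, below the 9.36% of all genes), although all 42 lay below 0, with a median of -0.35 that was 0.26 in the FPKM as deposited and -0.01 after quantile normalization. The 2 became 0 to 10 with 1 library left out, moving by over 1.5 times whichever it was.

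The canonical E-box, CACGTG, the letters that MYC with its partner MAX binds, was in 2030 of the 27305 windows (7.43%) and in 13 of 33 windows of nucleolar genes (39.4%). It was in 2 of 28 windows of ATF4 targets (7.14%), in 1 of 16 of synthetases (6.25%) and in 1 of 24 of androgen-induced genes (4.17%). The 27305 windows also cover genes not tested here. Of the nucleolar genes with an E-box, PES1, IMP4, RRP9, NOP2, MRTO4, NOP14 and BYSL were called lower. FBL, WDR43, UTP4, EBNA1BP2, NAT10 and UTP20 held one too and were not called. CACGTG reads the same on both strands and was counted once per position. The androgen response half-site AGAACA, followed after 3 bases by TG, the start of its partner, was searched on either strand and was in 307 of the 27305 windows (1.12%). None of the 24 windows of androgen-induced genes held it, nor any of the 28 of ATF4 targets, the 16 of synthetases or the 33 of nucleolar genes. With 1.12% of all windows holding it, sets this small could hold none in any case, so no conclusion is drawn from its absence. Of the 37 androgen-induced genes tested only 24 had a window, and no base outside the windows was searched. IMP4, a component of the small-subunit processome, is shown because it had the largest fall of those with an E-box before the start, with the first base of the E-box, in capitals, 203 before it; a second lies from base 16 after it.
IMP4, chr2:130342647-130342896, + strand: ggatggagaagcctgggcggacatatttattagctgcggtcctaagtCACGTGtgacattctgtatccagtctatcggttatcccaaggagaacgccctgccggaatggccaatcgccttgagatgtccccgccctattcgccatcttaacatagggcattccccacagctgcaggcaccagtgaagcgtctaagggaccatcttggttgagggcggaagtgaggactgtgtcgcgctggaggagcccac
IMP4 had 51.7 and 46.7 scaled FPKM with A-485 alone and 58.4 and 45.6 with A-485 and I-CBP112, against 102 and 86.2 with DMSO and 80.0 and 81.8 with I-CBP112. Without overlap between the sets, it differed by -0.78 ± 0.11 (limma, adjusted p = 0.0054).

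Genes of DNA replication and the G1/S transition were lower in 21 of 39 cases, and those of G2 and mitosis in 2 of 37. Of 39 G1/S genes, 21 were lower and 0 higher (53.8%, against 9.36% of all genes), with a median of -0.59 (-0.11 in the FPKM as deposited). The count was 11 to 21 with 1 library left out, moving by over 1.5 times without A-485 replicate 1, A-485 and I-CBP112 replicate 1 or I-CBP112 replicate 2, and it was 12 at equal totals. MCM2, a subunit of the replicative helicase, had 34.6 and 27.9 scaled FPKM with A-485 alone and 14.9 and 11.1 with A-485 and I-CBP112, against 72.7 and 44.4 with DMSO and 41.0 and 34.9 with I-CBP112. The highest library with A-485 lay just under the lowest without it, and the log2 difference was -1.17 ± 0.16 (limma, adjusted p = 0.0043). MCM5, of the same complex, differed by -1.18 ± 0.17, TK1 (thymidine kinase) by -1.17 ± 0.14 and CDC6, which loads the helicase, by -1.14 ± 0.20. Exons of MCM2 overlap TPRA1 on the opposite strand.

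Of 37 genes of G2 and mitosis, 2 were lower (5.41%, below the 9.36% of all genes) and 0 higher. The list median was 0.00, and by the state of I-CBP112 it was -0.23 with I-CBP112 and 0.14 without it, a difference not tested. No member was lower at equal totals, after quantile normalization or without the prefix as a block. The 2 lower genes were AURKB (-0.49 ± 0.13) and CDC20 (-0.49 ± 0.12), both of which had small positive differences in the FPKM as deposited (0.06 and 0.09). The AURKB call held only without DMSO replicate 2 and the CDC20 call only without DMSO replicate 2 or I-CBP112 replicate 1, with adjusted p up to 0.142 for AURKB and 0.132 for CDC20 without the other libraries (limma). MKI67, the proliferation marker Ki-67, had 10.2 and 10.1 scaled FPKM with A-485 alone and 5.04 and 4.45 with A-485 and I-CBP112, against 5.26 and 9.10 with DMSO and 6.86 and 6.38 with I-CBP112. The groups overlapped, and the log2 difference was 0.04 ± 0.23 (limma, adjusted p = 0.92). Of 14 replication-dependent histone genes, 8 lay above 0, and the median was 0.04 (-0.32 within the 2-22 libraries). The 2 lower ones (14.3%, against 9.36% of all genes) were HIST1H4C (-1.35 ± 0.20) and HIST1H1E (-1.27 ± 0.27). Their levels followed the prefix first, with HIST1H4C at 5.51 and 15.7 with A-485 and 20.6 and 23.8 without it in the 12-17 libraries, and at 37.9 and 82.7 with A-485 and 109 and 254.5 without it in the 2-22 libraries. Neither was called without the prefix in the model (limma, adjusted p = 0.438 for HIST1H4C and 0.63 for HIST1H1E), and HIST1H1E was not called without A-485 replicate 1, DMSO replicate 2 or I-CBP112 replicate 2 (adjusted p up to 0.08).

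Among metabolic genes the share of lower calls differed by list, against 9.36% of all genes lower and 4.56% higher. Of 22 genes of fatty acid synthesis and desaturation, 9 were lower (40.9%) and 0 higher (median -0.38, 0.15 in the FPKM as deposited), among them the elongases ELOVL7 (-1.68 ± 0.20) and ELOVL5 (-0.85 ± 0.12) and SCD, the stearoyl-CoA desaturase (-1.05 ± 0.13). SCD had 128 and 107 scaled FPKM with A-485 alone and 177 and 183 with A-485 and I-CBP112, against 310 and 218 with DMSO and 353 and 343 with I-CBP112. Of 24 genes of cholesterol synthesis and uptake, 6 were lower (25%) and 1 higher (4.17%), with a median of -0.23 (0.31 as deposited). INSIG1, a sterol sensor, differed by -0.89 ± 0.10. Of 15 polyamine genes 6 were lower (40%) and 0 higher (median -0.36, 0.22 as deposited), with ARG2 (arginase 2) at -1.82 ± 0.12 and SRM (spermidine synthase) at -1.06 ± 0.14. ARG2 had 33.2 and 41.6 scaled FPKM with A-485 alone and 26.9 and 40.6 with A-485 and I-CBP112, against 113 and 124 with DMSO and 121 and 151 with I-CBP112. Exons of ARG2 overlap VTI1B on the opposite strand.

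With 1 library left out, the lower calls numbered 4 to 9 for fatty acid genes, 2 to 8 for cholesterol genes and 2 to 6 for polyamine genes. Each moved by over 1.5 times without A-485 replicate 1, A-485 replicate 2, A-485 and I-CBP112 replicate 1, DMSO replicate 2 or I-CBP112 replicate 2, and the polyamine count also without I-CBP112 replicate 1. At equal totals the lower calls were 5, 4 and 3 in these lists. Of 29 genes of glycolysis and the hypoxia response, 6 were lower (20.7%) and 2 higher (6.9%), with a median of -0.28 (0.25 as deposited). The 6 were 1 at equal totals, and the 6 became 0 to 9 and the 2 became 0 to 3 with 1 library left out. Leaving out DMSO replicate 1 moved neither count by over 1.5 times, and leaving out I-CBP112 replicate 1 moved only the 2. Nuclear genes of oxidative phosphorylation stood near the median gene, with 2 of 34 lower (5.88%, below the 9.36% of all genes), 0 higher and a median of -0.08, which was 0.13 at equal totals and 0.11 after quantile normalization. The 2, SDHB and CYC1, became 0 to 3 with 1 library left out, moving without either A-485 library, A-485 and I-CBP112 replicate 1, DMSO replicate 2 or I-CBP112 replicate 2.

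The genes that were higher were fewer and mostly of low or middle abundance. AMIGO3, a cell adhesion protein, had 6.54 and 4.33 scaled FPKM with A-485 alone and 15.1 and 12.8 with A-485 and I-CBP112, against 1.31 and 0.000193 with DMSO and 2.10 and 2.75 with I-CBP112. The groups did not overlap, and its log2 difference of 2.10 ± 0.23 (limma, adjusted p = 0.0022) was the largest of all called rises. Exons of AMIGO3 overlap those of GMPPB on the same strand, so part of this signal may belong to the neighbour. MT3, a metallothionein, had 4.56 and 6.84 with A-485 alone and 10.1 and 12.3 with A-485 and I-CBP112, against 0 and 0.893 with DMSO and 2.70 and 4.14 with I-CBP112, and differed by 1.87 ± 0.20. OPTN (optineurin, an autophagy receptor) differed by 1.39 ± 0.16, B3GALT4 (a galactosyltransferase) by 1.42 ± 0.15, ETNK2 (ethanolamine kinase 2) by 1.31 ± 0.16 and ST5 by 1.33 ± 0.20 (limma, adjusted p from 0.0021 to 0.0063).

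Of the other genes among the 14 largest rises, 7 (ZNF487, SNORC, RINL, C1R, TP53I3, NDUFA13 and MVP) lost the call without 3 to 7 of the libraries, with adjusted p up to 0.116 (RINL; limma). ZNF487 kept it only without A-485 replicate 1, DMSO replicate 1 or I-CBP112 replicate 1. SNORC kept it only without a library that lacked A-485. RINL kept it only without A-485 replicate 1, A-485 and I-CBP112 replicate 2 or I-CBP112 replicate 1. C1R kept it only without DMSO replicate 1 or either I-CBP112 library, and NDUFA13 only without either I-CBP112 library. MVP, the major vault protein, was the most abundant of them, with 36.9 and 40.0 scaled FPKM with A-485 alone and 66.3 and 44.2 with A-485 and I-CBP112, against 21.9 and 8.30 with DMSO and 16.6 and 26.8 with I-CBP112. The groups did not overlap, and it differed by 1.38 ± 0.28 (limma, adjusted p = 0.019), but it was not called without A-485 replicate 1, A-485 replicate 2 or A-485 and I-CBP112 replicate 1. Exons of NDUFA13 overlap YJEFN3 on the same strand.

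Interferon response genes held the highest share of rises of the lists other than cell type markers. Of 36 tested, 8 were higher (22.2%, against 4.56% of all genes) and 2 lower (5.56%, below the 9.36% of all genes), with a median of 0.30. The count of higher genes was 6 to 10 with any 1 library left out, 16 at equal totals and 15 after quantile normalization. IRF9, the DNA-binding subunit of the interferon-activated complex ISGF3, had 16.6 and 16.9 scaled FPKM with A-485 alone and 25.2 and 16.8 with A-485 and I-CBP112, against 5.82 and 6.43 with DMSO and 8.01 and 9.34 with I-CBP112. The groups did not overlap, and it differed by 1.24 ± 0.15 (limma, adjusted p = 0.0028). IFI27L2 (1.61 ± 0.14) and IFIT1 (1.28 ± 0.22), both interferon-induced, were higher too. PSMB9, a subunit of the immunoproteasome, was higher by 1.22 ± 0.22. It was not called without I-CBP112 replicate 2 (limma, adjusted p = 0.0515). The lower members were OASL (-1.62 ± 0.32) and ISG20 (-0.74 ± 0.16), with 1.68 to 6.29 scaled FPKM of OASL with A-485 and 9.13 to 17.6 without it. OASL was not called without A-485 and I-CBP112 replicate 1, DMSO replicate 2 or I-CBP112 replicate 2 (adjusted p up to 0.0699), and ISG20 without 5 of the libraries (up to 0.0864): both A-485 libraries, A-485 and I-CBP112 replicate 1, DMSO replicate 2 and I-CBP112 replicate 2. Of 23 NF-kB genes listed, 15 were tested and 0 of these were called by limma, against 13.9% of all genes. An unadjusted p under 0.05 (limma) was found for 4 of the 15 and for 3809 of all 11874. The list median was 0.00, with a range of -0.70 to 0.50. Whether this list differs from all genes was not tested.

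Among chromatin regulators, HEXIM1, which holds the elongation kinase P-TEFb inactive, had 32.9 and 34.7 scaled FPKM with A-485 alone and 69.5 and 73.8 with A-485 and I-CBP112, against 16.2 and 19.4 with DMSO and 32.9 and 35.8 with I-CBP112. The sets overlapped, since the A-485 libraries were level with the I-CBP112 libraries, but in each pair of libraries with the same prefix and I-CBP112 state the one with A-485 was the higher. Its log2 difference was 0.97 ± 0.09 (limma, adjusted p = 0.0015). BRD8 was the only other called member of the 33 bromodomain and P-TEFb genes (0.45 ± 0.12; list median 0.19), and its call was lost without any 1 library other than I-CBP112 replicate 1 (adjusted p up to 0.138). The 2 higher genes (6.06%, against 4.56% of all genes) were 7 at equal totals and 6 after quantile normalization. They became 1 to 6 with 1 library left out, moving by over 1.5 times without any but DMSO replicate 1.

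The targets of A-485 themselves were not lower. EP300 had 15.4 and 13.5 scaled FPKM with A-485 alone and 13.2 and 14.1 with A-485 and I-CBP112, against 7.20 and 10.5 with DMSO and 8.99 and 11.1 with I-CBP112. The groups did not overlap, and it differed by 0.54 ± 0.14 (limma, adjusted p = 0.041), a call lost whichever library was left out (adjusted p from 0.0633 to 0.137). CREBBP had 16.9 and 13.3 with A-485 alone and 14.9 and 12.1 with A-485 and I-CBP112, against 6.28 and 12.2 with DMSO and 9.88 and 10.6 with I-CBP112, and differed by 0.53 ± 0.21 (limma, adjusted p = 0.12). The related acetyltransferase gene KAT2B (PCAF) was higher, at 0.79 ± 0.13 (limma, adjusted p = 0.0077), with 5.67 to 7.61 scaled FPKM with A-485 and 3.28 to 4.05 without it. Of all 31 acetyltransferases, deacetylases and sirtuins, 3 were higher (9.68%, against 4.56%), namely EP300, KAT2B and SIRT2. Only SIRT5 was lower (3.23%, below the 9.36% of all genes), and the list median was 0.14. The SIRT2 call held only without DMSO replicate 1, and the SIRT5 call only without A-485 and I-CBP112 replicate 2, so the 3 became 1 to 2 with 1 library left out, and they were 5 at equal totals.

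Of 31 CLK kinases and SR splicing factors, SRSF5 (0.52 ± 0.10) and RBM6 (0.56 ± 0.13) were higher (6.45%, close to the 4.56% of all genes), both lost without A-485 replicate 1, A-485 replicate 2 or A-485 and I-CBP112 replicate 1 and each without 1 more library (adjusted p up to 0.0682 and 0.107). The count was 9 at equal totals and 7 after quantile normalization. It was 0 to 4 with 1 library left out, moving by over 1.5 times without either A-485 library, either library with both compounds or I-CBP112 replicate 2, and the median of 0.21 was then 0.10 to 0.28. Of 36 autophagy and lysosome genes 2 were higher and 1 lower (2.78%, below the 9.36% of all genes), with a median of 0.12. The higher genes were OPTN and NEU1, and the NEU1 call was lost when any 1 library other than DMSO replicate 1 was left out. The 2 (5.56%, close to the 4.56% of all genes) were 12 at equal totals and 8 after quantile normalization, and 1 to 3 with 1 library left out, moving by over 1.5 times without any but DMSO replicate 1. The lower gene was NPC1, the lysosomal cholesterol exporter, at -1.07 ± 0.12, whose exons overlap RMC1 on the opposite strand. Of 23 metallothionein and zinc transporter genes 3 were higher (13%, against 4.56% of all genes) and 6 lower (26.1%, against 9.36%). Their median was -0.05 (0.13 at equal totals), and the zinc exporter SLC30A4 stood lowest at -1.38 ± 0.20. The 6 became 1 to 6 and the 3 became 1 to 3 with 1 library left out, with both moving without A-485 replicate 2, A-485 and I-CBP112 replicate 1 or I-CBP112 replicate 2, the 6 also without A-485 replicate 1 or DMSO replicate 2 and the 3 also without A-485 and I-CBP112 replicate 2. Of 18 CREB targets and immediate early genes 3 were lower (16.7%, against 9.36% of all genes), ATF3 (-1.42 ± 0.26), FOS (-0.99 ± 0.27) and SIK1 (-0.87 ± 0.13). The count was 1 to 2 genes with 1 library left out, and the list median was -0.15 (0.04 at equal totals). FOS was at or under 0.285 scaled FPKM with A-485 and its call was lost whichever library was left out (adjusted p up to 0.133), and that of ATF3 without A-485 replicate 1 (0.0514). Of 27 widely used reference genes, 2 were lower (7.41%, below the 9.36% of all genes), among them HPRT1 (-0.51 ± 0.13), which was at 0.05 in the FPKM as deposited. The HPRT1 call held only without A-485 replicate 2 or DMSO replicate 2, and the list's median of -0.07 was 0.14 at equal totals.

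**Figure D3:**
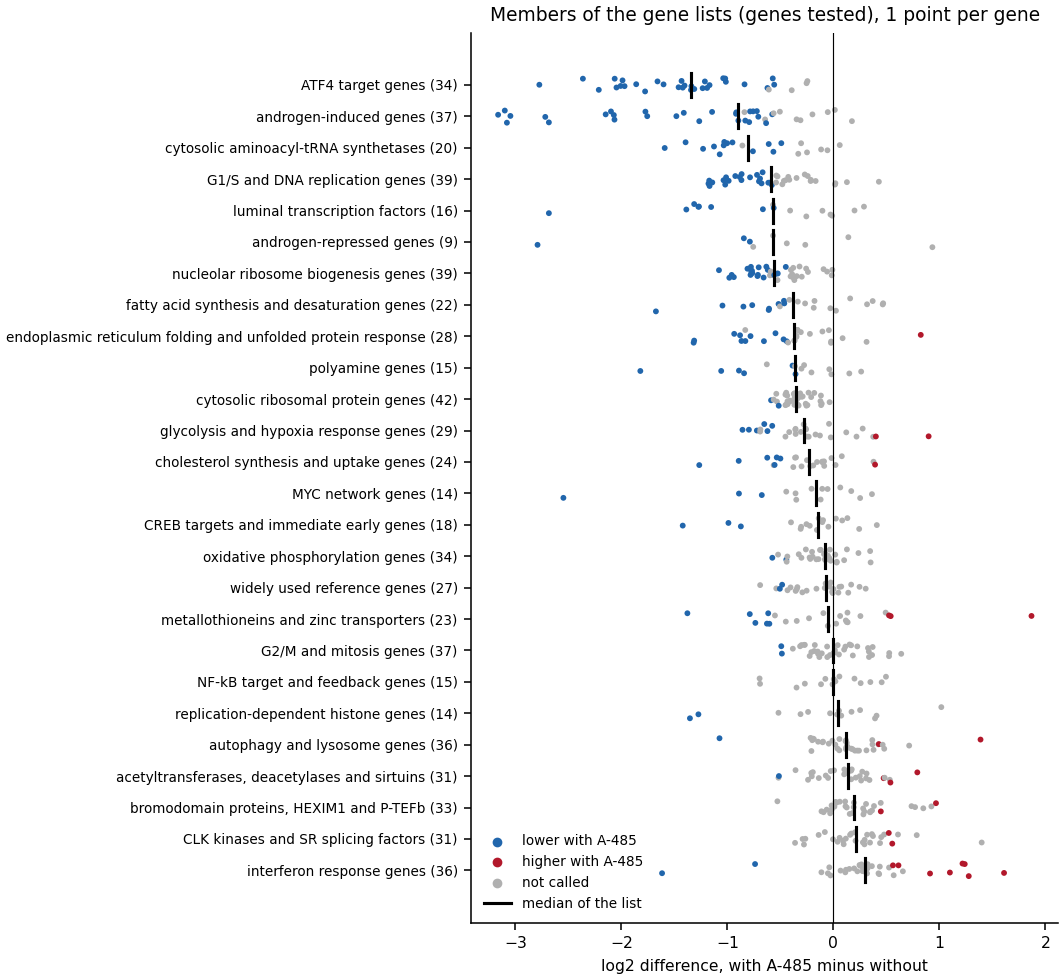
Log2 difference with A-485 minus without (x axis) of the members tested of each gene list (rows, ordered by median, with the number of genes tested), 1 point per gene with vertical scatter for legibility. Blue points were called lower, red higher and grey not called, and bars are medians; ATF4 targets have the lowest median (-1.34) and interferon response genes the highest of those drawn (0.30).

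The difference with A-485 was measured separately in cells without I-CBP112 (A-485 minus DMSO) and with it (both compounds minus I-CBP112), which share no library. The 1112 lower genes had a median of -0.66 with I-CBP112 and -0.78 without it, and the 541 higher genes 0.60 and 0.64. These genes were called on the average of the 2 differences, so the signs of these medians were set by that choice. Over all genes tested the 2 sets of differences had a Pearson correlation of 0.477 across genes, a description with no test. The medians of androgen-induced genes were -1.08 with I-CBP112 and -0.73 without it, those of G1/S genes -0.72 and -0.47, those of ATF4 targets -1.20 and -1.49, and those of ribosomal protein genes -0.19 and -0.57. For G2 and mitosis genes they were -0.23 with I-CBP112 and 0.14 without it. These differences between list medians were not tested.

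The interaction of A-485 with I-CBP112 was called for 8 genes (0.0674% of those tested), and 1846 had an unadjusted p under 0.05 (limma). In all 8 the difference with A-485 was more negative in the presence of I-CBP112. For KLK3 it was -4.38 with I-CBP112 and -1.82 without it, an interaction of -2.57 ± 0.18, and for DDC -3.88 and -1.70, an interaction of -2.18 ± 0.18. The mean of both states hides opposite signs for some of these genes. BCHE, butyrylcholinesterase, had 25.5 and 26.4 scaled FPKM with A-485 alone and 7.17 and 6.73 with A-485 and I-CBP112, against 10.6 and 12.8 with DMSO and 16.6 and 18.04 with I-CBP112. It was above DMSO in both A-485 libraries and below I-CBP112 in both libraries with both compounds, with a main effect of -0.06 ± 0.42 and an interaction of -2.29 ± 0.20. UGT2B17 and UGT2B15, enzymes that glucuronidate androgens and are close paralogs between which reads could be split, were lower in both libraries with both compounds than in the other 6. The interaction of UGT2B17 was -2.37 ± 0.21 with a main effect of -0.76 ± 0.44. The interaction of UGT2B15 was -2.27 ± 0.21 with a main effect of -0.44 ± 0.42. TFPI, a coagulation inhibitor, had an interaction of -2.26 ± 0.19 and a main effect of -1.19 ± 0.41, and the other 2 genes, named because the count is small, were MAOA (-2.03 ± 0.17) and ACKR3 (-2.02 ± 0.18). Adjusted p lay between 0.0205 and 0.0250 for the 8 (limma). The interaction fit left 3 residual degrees of freedom, and its calls changed with single libraries. They numbered 17 without DMSO replicate 1 and 532 without DMSO replicate 2. By limma 0 were called when any 1 of the other 6 libraries was left out (738 to 2015 with an unadjusted p under 0.05). The cause of these changes was not tested. Without the replicate block 0 were called and 1059 had an unadjusted p under 0.05.

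**Figure D4:**
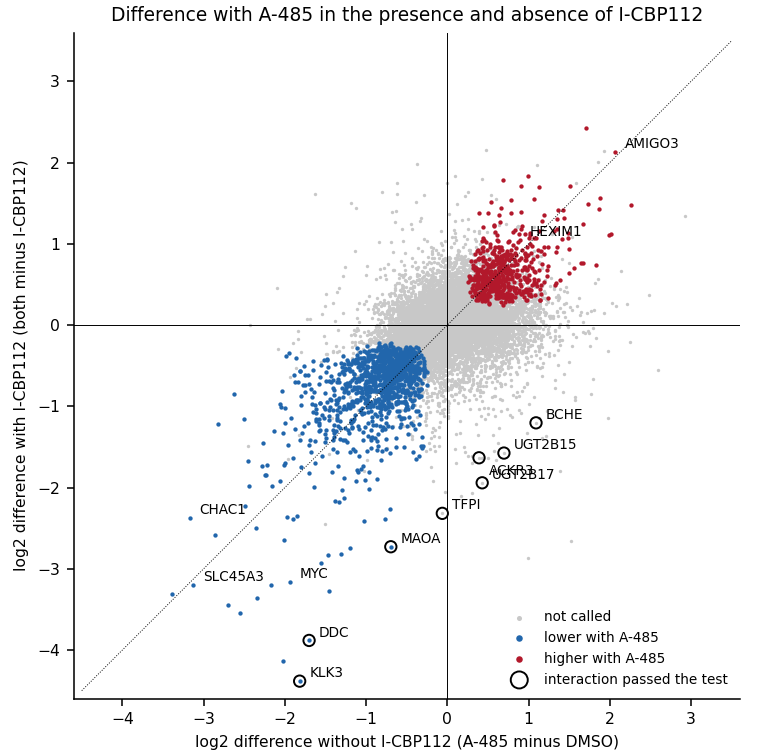
Log2 difference with A-485 in the presence of I-CBP112 (y axis, both compounds minus I-CBP112) against that in its absence (x axis, A-485 minus DMSO), 1 point per gene tested, with the dotted line of equality. Open circles mark the 8 genes whose interaction was called, all below the line; SLC45A3 lies near it at about -3 on both axes.

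Most markers of other cell types were too low to be tested. Of 10 basal markers 4 were tested and 0 called by limma, against 13.9% of all genes (2 had an unadjusted p under 0.05). Their summed level was 10.6 to 12.1 scaled FPKM with A-485 and 9.54 to 25.6 without it. Of 14 stromal and endothelial markers 4 were tested and COL1A1 was higher (0.99 ± 0.15), with 9.29 to 11.7 scaled FPKM with A-485 and 3.44 to 6.15 without it, while COL1A2, its partner chain, was at or under 0.00783 throughout. The summed level of that list was 30.4 to 38.1 with A-485 and 22.0 to 34.8 without it. Of 13 neuroendocrine markers 3 were tested and ENO2, which is also a glycolytic enzyme, was higher (0.90 ± 0.18), with a summed level of the list of 42.5 to 90.4 with A-485 and 27.6 to 47.4 without it. ENO2 was not called without A-485 and I-CBP112 replicate 1, DMSO replicate 2 or I-CBP112 replicate 2 (adjusted p up to 0.0761). Of 12 blood cell markers CD68, which epithelial cells can also express, was the only one tested and was higher (0.81 ± 0.22), with 2.12 to 5.94 scaled FPKM with A-485 and 1.44 to 2.62 without it. Its call held only without A-485 replicate 2, and 7 of the 12 were at 0 in all libraries. The part of these markers in the results was not tested. Luminal markers were lower in 10 of 14 cases (71.4%, against 9.36% of all genes, and 7 to 10 cases with any 1 library left out), with a median of -1.16. These include KLK3, KLK2 and SLC45A3, while HOXB13 ranged from 167 to 240 with A-485 and 166 to 273 without it.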

How the data were processed

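RNA-seq of 8 libraries of LNCaP-FGC cells was analysed, 2 libraries per treatment. The deposited table held FPKM values per transcript for 81591 transcripts. Its name calls them counts. Since 78.3% of the values had a fractional part, no count test was used. STAR, Cufflinks, DESeq, DESeq2, hg19 and GRCh37 are named in the submitters' processing notes, without roles or versions. The authors' FPKM were summed per gene through GENCODE 29 transcript names, which matched 91.0% of the transcripts, and were scaled to a total of 1000000 and by a trimmed mean of log ratios (30% of ratios and 5% of levels trimmed at each side).

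Genes with a scaled value of at least 1 in at least 2 libraries were fitted with limma 3.58.1 in R 4.3.3 (trend, robust) on log2(scaled FPKM + 1), which understates the change of low genes. A-485, I-CBP112 and the prefix were terms, leaving 4 residual degrees of freedom, and p-values were adjusted by Benjamini-Hochberg over all genes tested. The interaction was tested with 1 added term. The replicate numbers were treated as pairing the libraries, since the comparison was defined with the prefix as a covariate. Deviations of same-numbered libraries from their group means correlated by 0.145 to 0.425 in every pair of groups. The cause of this correlation was not tested. Fragment numbers were estimated from the steps between low FPKM values of transcripts of at least 3000 bases, of which 75.3% to 81.9% fell within 0.1 of whole reads. The 2-22 libraries had fewer fragments on the transcripts of the table, so their low values are less precise. Python 3.11.15 was used for descriptions, and the fit was tested on simulated data. Alternatives were other scalings, filters, a pseudocount of 0.1, no replicate block, library weights, a length and GC correction, each prefix alone and each library left out.

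Genes were named by rule: the 14 largest falls and rises that were called, went the same way in 4 pairs and averaged at least 5 scaled FPKM in the higher set, up to 4 called genes each way per list, 6 interaction genes, and EP300, CREBBP, MYC, KLK3, HEXIM1 and MKI67. ASNS, IMP4, ATF4, MAOA, ACKR3 and further list members were added after their values were seen. Some genes that this rule picks are not reported here. The genes compared and the lists were chosen with earlier results of these data known. Promoter sequences are from RefSeq (GRCh38.p14) and no coordinate of another build was used.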

Additional observations from a re-analysis of the deposited data

Results flagged for a closer look

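The difference with A-485 depended on I-CBP112 for 8 genes, by the interaction test (limma, adjusted p from 0.0205 to 0.0250). The difference in the presence of I-CBP112 minus that in its absence was -2.57 for KLK3, -2.37 for UGT2B17, -2.29 for BCHE, -2.27 for UGT2B15, -2.26 for TFPI, -2.18 for DDC, -2.03 for MAOA and -2.02 for ACKR3. The difference was the more negative in the presence of I-CBP112 for all 8. None of these calls was kept when any 1 of 6 libraries was left out, since 0 genes were then called by limma, while 532 were called without DMSO replicate 2 and 17 without DMSO replicate 1.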

How the results depend on the processing

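The A-485 count of 1653 genes was 1081 without the replicate block, 4008 in the FPKM as deposited, 466 in the 12-17 libraries and 50 in the 2-22 libraries, and 532 to 1829 with 1 library left out; the fits on fewer libraries have fewer degrees of freedom. The cause of these changes was not tested. The interaction count of 8 was 0 without the replicate block (1059 with an unadjusted p under 0.05), 26 with a stricter filter, 36 after quantile normalization and 0 to 532 with 1 library left out. Without the block, 25 of 108 called named genes lost their call and 0 changed sign.

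MKI67, not called, had -0.03 after quantile normalization, -0.11 with library weights, -0.04 with the length and GC trend removed, -0.15 in the 2-22 libraries and -0.22 to 0.22 with 1 library left out. BCHE, not called, had 0.15 at equal totals, 0.44 as deposited, 0.04 in the 12-17 libraries and -0.39 to 0.27 with 1 library left out. In the FPKM as deposited, where the median gene stood at 0.45, differences turned to 0.07 for UGT2B15, 0.14 for SDHB, 0.09 for CDC20, 0.04 for SIRT5, 0.09 for RPS3A, 0.05 for HPRT1, 0.02 for RPL4, 0.06 for AURKB, 0.02 for CYC1 and 0.03 for SREBF2.

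Of 2272 combinations of a named gene and an alternative, 1742 kept direction and side of the threshold, 499 lost the call, 7 gained one and 24 changed sign. Of the 108 called named genes, 62 were called whichever library was left out. Low genes are the least precise in the 2-22 libraries, which had the fewest fragments on the transcripts of the table.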
